A study of Macaca fascicularis with 34 samples.

Results

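IFITM1, IFITM2 and IFITM3, the interferon-induced transmembrane protein genes, were followed through 34 single cells of cynomolgus monkeys (Macaca fascicularis), taken from embryos and from male gonads. The 3 members are the rows of the expression table that carry these human symbols, 3 of 28551 genes, and they were chosen by their levels in these same cells, low in the latest ones, as seen in earlier results. They correspond to the macaque gene IDs 102146566 for IFITM1, 102145938 for IFITM2 and 102146935 for IFITM3, all listed as protein-coding on chromosome 14. Differences between stages are therefore descriptions of the values that drew attention to the genes, and none was tested.

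IFITM proteins are small membrane proteins that hinder the fusion of enveloped viruses with host membranes, and interferon raises their transcription in many cell types. In human cells IFITM1 lies mainly at the plasma membrane, whereas IFITM2 and IFITM3 have a longer amino-terminal tail with a sorting signal that carries them to endosomes. Pluripotent and other stem cells hold IFITM RNA without an interferon stimulus. In mouse, Ifitm1 and Ifitm3 (fragilis) are expressed in early primordial germ cells, the precursors of sperm and eggs, and mice without the Ifitm cluster still form germ cells.

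The labels give the fascicularis subspecies and the stage, and name no genotype, treatment or animal. Male gonads gave 6 cells at embryonic day (E) 36, 1 cell at E47 and 2 cells at E55, and embryos gave 3 cells at E13, 1 at E14, 11 at E16, 2 at E17 and 8 at E20. Each cell was amplified and sequenced at the 3′ ends of its transcripts on the SOLiD system (SC3-seq), to between 472189 and 3556593 recovered reads, and levels are in RPM, a gene's reads scaled to the library total. With no animal named, each stage counts as 1 sample, an SD is the spread over its cells, and no p-value is given.

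The labels name no cell type. Sorted by their 1000 most variable genes, without the IFITM genes, the cells fell into a larger cluster of 26 and a smaller cluster of 8, which held E16 cell 8 and E20 cells 1 to 7. The summed level of 14 germ cell markers ran from 2426 to 10221 RPM in the larger cluster and from 528 to 3406 RPM in the smaller one. That of 10 mesoderm markers overlapped, from 10.1 to 1052 RPM in the larger and from 306 to 5499 RPM in the smaller cluster. Within the smaller cluster, E16 cell 8 also held 4948 RPM of endoderm markers, and E20 cell 1 held 2195 RPM of blood and endothelial markers. Neither cluster is given a cell type name, because these markers were not among its 10 genes with the largest folds. INSL3 and CYP17A1, both Leydig cell genes, came first in the larger cluster, and MSGN1, a mesoderm factor outside the list, in the smaller one. The ranks of INSL3 and CYP17A1 rest on the E47 cell alone. In the other cells of the larger cluster INSL3 was at most 5.79 RPM and CYP17A1 at most 2.90 RPM. The E47 cell carried 22784 RPM of 15 gonadal somatic markers, of which 15703 RPM were INSL3, against 96.1 to 1156 RPM in the E36 cells, so its values are given apart. All 9 gonad cells, and both E17 cells, share 1 code in their sample titles (MS11), the E16 cells share another with E20 cell 8, and the other E20 cells, the E13 cells and the E14 cell have codes of their own, so code and stage cannot be told apart in most comparisons.

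IFITM1, the plasma membrane member, had its highest stage means at E13 and E14 and its lowest at E55. It stood at 1197, 1744 and 855 RPM in the 3 E13 cells and at 2038.5 RPM in the E14 cell. Across the 11 E16 cells it ran from 134 to 1140.4 RPM with a median of 302 RPM, and it was 921 and 954 RPM in the E17 cells. The 8 E20 cells held 19.9, 2439, 1047, 91.0, 318.5, 2036, 1868 and 360.4 RPM, the widest range of any stage. In the gonad it was 475, 755, 791, 469, 270.3 and 48.2 RPM in the E36 cells, 69.8 RPM in the E47 cell, and 2.05 and 2.90 RPM in the E55 cells. Those last values rest on 2 and 4 reads.

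Ordered by mean log2(RPM + 1), IFITM1 ran E14, E13, E17, E20, E36, E16, E47 and E55, from high to low. Only the neighbours E14 and E13, E16 and E47, and E47 and E55 had ranges that did not overlap, and the single E14 and E47 cells have no spread of their own. The middle of this order, from E13 to E16, consists of overlapping neighbours.

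IFITM2, an endosomal member, varied least of the 3, with an SD over all cells of 1.32 on the log2 scale, against 2.32 for IFITM1 and 1.98 for IFITM3. It was 239, 95.4 and 281 RPM at E13 and 845 RPM at E14, ran from 58.5 to 560.2 RPM at E16 with a median of 270.4 RPM, and was 392 and 415 RPM at E17. At E20 the 8 cells held 412, 1233, 729, 335.5, 304, 1175, 1085 and 408 RPM. The E36 cells held 289, 320.2, 209, 244, 155 and 132 RPM, the E47 cell 121.5 RPM, and the E55 cells 37.9 and 29.0 RPM, from 37 and 40 reads. The order from high to low was E14, E20, E17, E36, E16, E13, E47 and E55, in which only E17 and E36, and E47 and E55, did not overlap as neighbours.

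IFITM3, the member best known for blocking viruses in endosomes and the counterpart of mouse fragilis, had its highest stage means at E14 and E20 and its lowest at E36 and E55. It stood at 256, 49.0 and 251 RPM at E13, 1219 RPM at E14, between 30.7 and 977 RPM at E16 with a median of 251 RPM, and 181 and 584 RPM at E17. The 8 E20 cells held 851, 2092, 1571, 508, 382, 1744, 1634 and 589.8 RPM. The 6 E36 cells lay close together at 116, 80.1, 70.0, 67.4, 90.7 and 48.2 RPM, below every E20 cell. The E47 cell had 131.5 RPM, and the E55 cells had 6.15 and 34.0 RPM, from 6 and 47 reads. From high to low the stages ran E14, E20, E17, E16, E13, E47, E36 and E55, and among neighbours only E47 and E36, and E36 and E55, did not overlap.

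**Figure D1:**
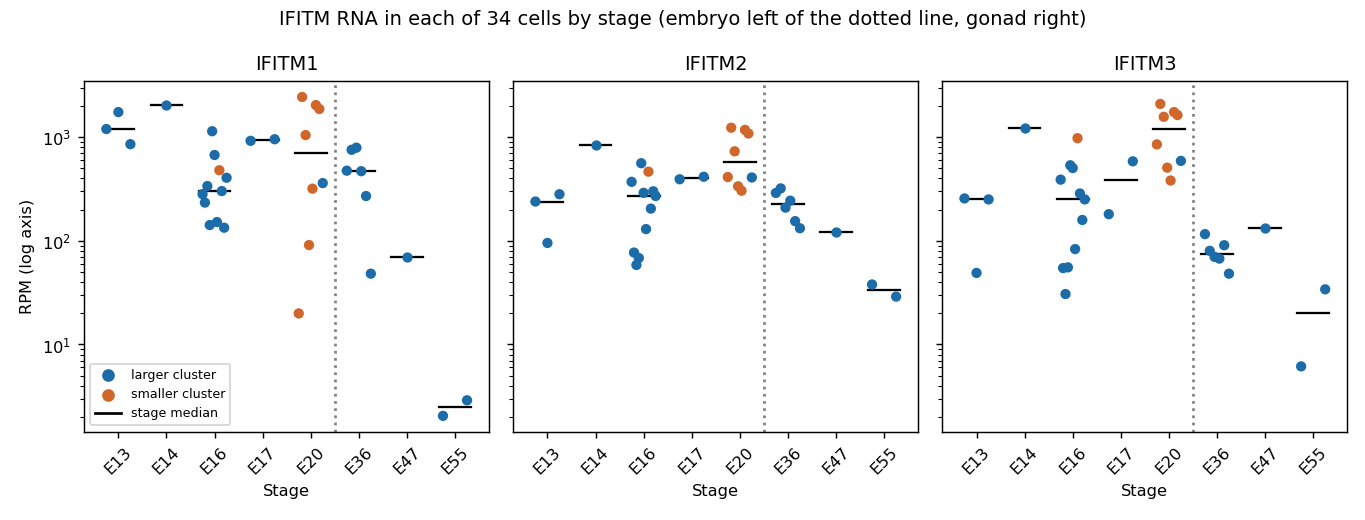
RPM of IFITM1, IFITM2 and IFITM3 (log axis) in each of 34 cells by stage, embryo left of the dotted line and male gonad right of it; points are cells coloured by cluster and bars are stage medians. The 2 E55 cells are the lowest of all cells in IFITM1 (2.05 and 2.90 RPM), and the 6 E36 cells lie below all E20 cells in IFITM3.

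The late gonad cells were set against the earlier ones. All 3 members were lower at E55 than at E36, with no overlap between the cells of the 2 stages, and IFITM1 differed most. IFITM1 averaged 2.47 ± 0.60 RPM at E55 and 468 ± 284 RPM at E36 (SD, n = 2 and 6 cells), a 189-fold lower mean and a difference of -6.66 in mean log2(RPM + 1). From summed reads, the E55 level was 2.55 RPM with an exact 95% Poisson interval of 0.93 to 5.54 RPM, and the E36 level was 467 RPM with an interval of 455 to 480 RPM. The ratio of the E36 to the E55 sum was 183.5, with an interval of 84.3 to 500.3. Among the 13388 genes measured in this comparison, those with a mean of at least 1 RPM at either stage, no gene had a lower difference than IFITM1.

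IFITM2 averaged 33.4 ± 6.3 RPM at E55 and 225 ± 73.9 RPM at E36, 6.72-fold lower, with a log2 difference of -2.66. IFITM3 averaged 20.1 ± 19.7 RPM at E55 and 78.7 ± 23.1 RPM at E36, 3.92-fold lower, with a log2 difference of -2.28. IFITM2 and IFITM3 ranked 169th and 268th from the lowest of the 13388 differences. The IFITM3 difference depended on which E55 cell was kept: it was -3.43 without E55 cell 2 and -1.14 without E55 cell 1.

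A difference of at least 2-fold in mean log2(RPM + 1), that is 1 or more, was used as the call. By it 3 of 3 members were lower at E55, where 10.3% of all measured genes were lower and 40.8% were higher. Every cell of E55 lay below every cell of E36 for 3 of 3 members and for 2.16% of measured genes. The members were picked with this contrast known, so nothing is read from these counts. The median difference of all genes was 0.67, or 0.57 with size factors in place of the deposited scaling. Relative to the median of 0.67 IFITM1 differed by -7.33, IFITM2 by -3.33 and IFITM3 by -2.95.

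Markers and depth of the same cells are given beside these values, and their part in the differences was not tested. The summed 15 gonadal somatic markers were 247 and 454 RPM in the E55 cells and ran from 96.1 to 1156 RPM at E36, and 4 of 15 reached a median of 15 RPM in each stage. AMH, the Sertoli cell hormone, was listed at 0 in all E36 cells and was 0 and 29.7 RPM at E55. INSL3, the Leydig cell hormone, was at most 5.79 RPM in the E55 cells and 2.46 RPM in the E36 cells. Some other markers of this list were higher. E36 cell 5 held 330 RPM of LHX9, 222 RPM of NR2F2 and 141 RPM of WT1, and E55 cell 2 held 57.2 RPM of WT1. GATA4 was 165 and 243 RPM at E55 and ran from 18.5 to 257 RPM at E36. The summed 14 germ cell markers were 6223 and 3857 RPM at E55 and 3063 to 4914 RPM at E36, with 13 of 14 markers at a median of 15 RPM or more in either stage. Without E36 cell 5 and E55 cell 2, which held the most somatic marker RNA of their stages, the IFITM3 difference was -3.38, a choice made after seeing the data. Depth was 975833 and 1380691 reads in the E55 cells and 809117 to 2945022 reads in the E36 cells.

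The E36 cells were then set against the embryo. Among the members IFITM3 alone was called lower than in the 25 embryo cells. It averaged 78.7 ± 23.1 RPM at E36 and 609 ± 597 RPM in the embryo (SD, n = 6 and 25 cells), 7.74-fold lower, with a log2 difference of -2.18. IFITM1 averaged 468 ± 284 RPM at E36 and 807 ± 716 RPM in the embryo, with a difference of -0.50 that was 0.06 without E36 cell 6. IFITM2 averaged 225 ± 73.9 RPM at E36 and 430 ± 336 RPM in the embryo, with a difference of -0.56. Of the 3 members 1 was called lower and 0 higher, beside 25.6% and 7.24% of all measured genes, and the median difference of all genes was -0.39. Relative to that median IFITM1 differed by -0.11, IFITM2 by -0.17 and IFITM3 by -1.79.

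The E36 and embryo cells also differ in kind, since 8 of the 25 embryo cells belong to the smaller cluster. The summed mesoderm markers ran from 48.0 to 240 RPM at E36 and from 139 to 5499 RPM in the embryo. Within the larger cluster, IFITM3 averaged 78.7 ± 23.1 RPM at E36 and 322 ± 301 RPM in 17 embryo cells, 4.09-fold lower, with a log2 difference of -1.43. IFITM1 differed by -0.52 and IFITM2 by -0.11 in the same cells. Within the single title code that holds both gonad and embryo cells, the log2 difference of E36 from the 2 E17 cells was -2.08 for IFITM3, -1.43 for IFITM1 and -0.91 for IFITM2.

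Against E13, the earliest cells, IFITM1 was the member called lower at E36. It averaged 468 ± 284 RPM at E36 and 1265 ± 449 RPM at E13 (SD, n = 6 and 3 cells), 2.70-fold lower, with a log2 difference of -1.80, and no E36 cell reached the lowest E13 cell. The call ended, at -0.68, when gonad cells above 200 RPM of somatic markers were left out, which kept E36 cell 2 alone. This limit was not applied to embryo cells, and the E13 cells held 609.9, 250.1 and 192 RPM of the same markers. Of these sums GATA4 made up 362, 142 and 115 RPM, so the sum is not particular to gonad cells. IFITM2 averaged 225 ± 73.9 RPM at E36 and 205 ± 97.6 RPM at E13, a difference of 0.20 that was -0.28 without E13 cell 2. IFITM3 averaged 78.7 ± 23.1 RPM at E36 and 185 ± 118 RPM at E13, a difference of -0.94 that was -1.73 without E13 cell 2. That cell held the least IFITM3 of the 3, at 49.0 RPM. Of the 3 members 1 was called lower than at E13 and 0 higher, beside 33.5% and 16.5% of all measured genes. Every E36 cell lay below every E13 cell for 1 of 3 members and 5.17% of genes. The E13 cells were the most shallowly sequenced, with 472189 to 775709 reads.

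Against E16, IFITM3 was called lower, and IFITM1 and IFITM2 were not called. IFITM3 averaged 78.7 ± 23.1 RPM at E36 and 302 ± 287 RPM at E16 (SD, n = 6 and 11 cells), 3.84-fold lower, with a log2 difference of -1.28, and the ranges overlapped. IFITM1 differed by 0.15 and IFITM2 by 0.11, and both signs turned when single cells were left out: IFITM1 was -0.09 without E36 cell 3, and IFITM2 was -0.07 without E16 cell 3. Of the 3 members 1 was called lower than at E16 and 0 higher, beside 30.2% and 7.28% of all measured genes. Without E16 cell 8, which lies in the smaller cluster, the IFITM3 difference was -1.05.

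Against E20, IFITM3 and IFITM2 were called lower, and IFITM3 differed more than against E13 or E16. IFITM3 averaged 78.7 ± 23.1 RPM at E36 and 1171 ± 660 RPM at E20 (SD, n = 6 and 8 cells), 14.9-fold lower, with a log2 difference of -3.69 and no overlap. IFITM2 averaged 225 ± 73.9 RPM at E36 and 710.3 ± 399 RPM at E20, 3.16-fold lower, with a log2 difference of -1.51 and some overlap. IFITM1 averaged 468 ± 284 RPM at E36 and 1023 ± 968 RPM at E20, and its log2 difference of -0.41 was -1.05 without E20 cell 1 and 0.15 without E36 cell 6. Of the 3 members 2 were called lower than at E20 and 0 higher, beside 30.0% and 12.5% of all measured genes. Every E36 cell lay below every E20 cell for 1 of 3 members and 0.540% of genes. Of the 8 E20 cells, 7 are in the smaller cluster; E20 cell 8, the other one, held 360.4 RPM of IFITM1, 408 RPM of IFITM2 and 589.8 RPM of IFITM3. For IFITM2 the E36 cells differed from that cell alone by -0.93, under the call, and E36 cell 2 alone, kept by the somatic marker limit, differed from all E20 cells by -0.93.

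Between the 2 clusters of embryo cells, IFITM2 and IFITM3 were lower in the larger one and IFITM1 was not called. IFITM3 averaged 322 ± 301 RPM in the larger cluster and 1219.6 ± 624.9 RPM in the smaller one (SD, n = 17 and 8 cells), with a log2 difference of -2.34. IFITM2 averaged 294.5 ± 201.5 RPM in the larger and 717 ± 394 RPM in the smaller cluster, with a difference of -1.43. IFITM1 averaged 698 ± 574 RPM in the larger and 1037.5 ± 957 RPM in the smaller cluster, and its difference of 0.05 ran from -0.60 without E20 cell 1 to 0.39 without E20 cell 2. Of the 3 members 2 were called lower in the larger cluster and 0 higher, beside 20.9% and 11.6% of all measured genes. The clusters were built without the IFITM genes, and 7 of the 8 cells of the smaller one are E20 cells with a title code of their own, so cluster, stage and code cannot be told apart here.

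The makeup of the IFITM RNA was described cell by cell, as each gene's share of the summed RPM of the 3. RPM is not scaled to length and the reads come from 3′ ends, so shares are compared across cells only. The 3 genes together gave 1387 to 1889 RPM at E13, 265.5 to 2236 RPM at E16 and 934 to 5764 RPM at E20. In the gonad they gave 880.1, 1155, 1070.2, 780.4, 516 and 229 RPM in the E36 cells, 323 RPM in the E47 cell, and 46.1 and 65.9 RPM in the E55 cells.

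IFITM1 made up a median of 70.7% of the sum over the E13 cells, 43.8% over the E16 cells, 31.5% over the E20 cells and 57.0% over the E36 cells. In the E55 cells it made up 4.44% of 45 reads and 4.40% of 91 reads, with exact 95% binomial intervals of 0.54% to 15.2% and 1.21% to 10.9%. All intervals here cover counting error only, since the sequenced cDNA was amplified and carried no molecular identifiers. IFITM3 made up a median of 10.9% at E36, with a range of 6.54% to 21.1%, and of 40.7% at E20, with a range of 35.2% to 66.3%. No E36 cell reached the lowest E20 share of IFITM3.

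The ratio of IFITM1 to IFITM3 ran from 3.41 to 35.6 at E13, from 0.49 to 11.02 at E16 and from 0.02 to 1.17 at E20. It was 4.09, 9.43, 11.3, 6.97, 2.98 and 1 in the 6 E36 cells, 0.53 in the E47 cell, and 0.33 and 0.09 in the E55 cells. The E36 range overlapped those of E13 and E16, and that of E20 through E36 cell 6 alone. The E13 and E20 ranges did not overlap each other.

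**Figure D2:**
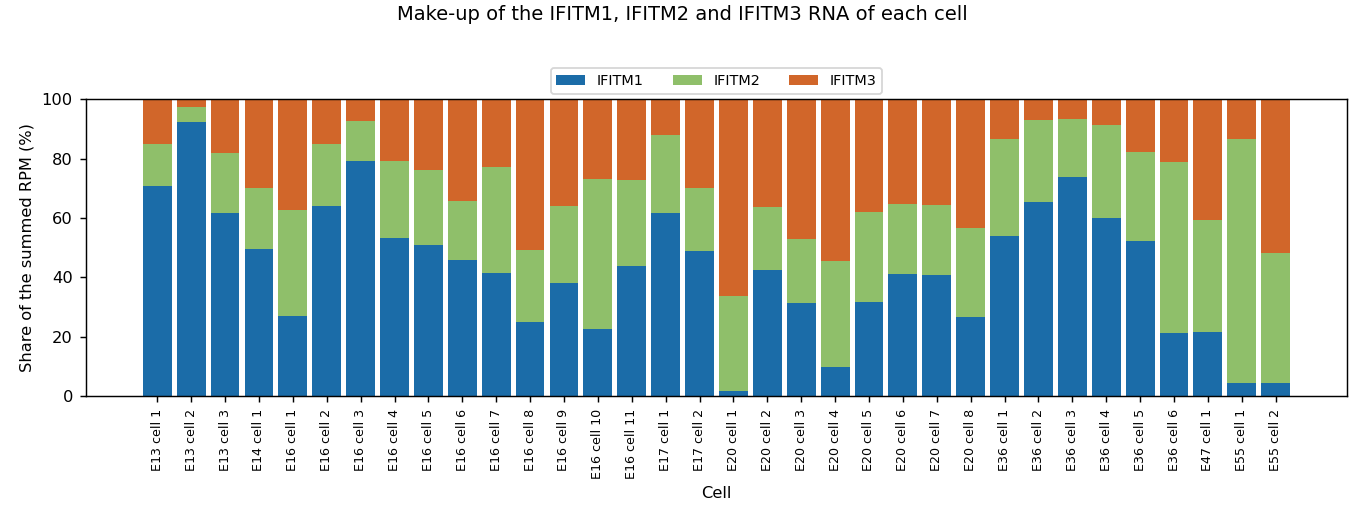
Share (%) of IFITM1, IFITM2 and IFITM3 in the summed RPM of the 3 genes, 1 bar per cell in stage order. IFITM1 makes up 4.44% and 4.40% of the sum in the E55 cells, and the IFITM3 share is 6.54% to 21.1% at E36 and 35.2% to 66.3% at E20.

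The 3 genes are close copies of each other, so the authors' counting could split reads between them, and the single genes' values are uncertain to that extent. All 102 IFITM values were whole numbers of reads within 0.1 read. In the RefSeq gene table of another macaque assembly (T2T-MFA8v1.1), the IFITM1 gene lies between the genes paired here with IFITM2 and IFITM3, with IFITM5 at the far end and 2 unnamed pseudogenes among them. IFITM5, the bone-restricted member, was listed at 0 in each of the 34 cells; a count of 0 allows a level of up to 0.047 RPM (3 reads of the summed depth). IFITM10 had 2 reads in all.

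Across the 34 cells IFITM2 and IFITM3 varied together and IFITM1 less so. Pearson's r between log2 values was 0.91 for IFITM2 with IFITM3, 0.69 for IFITM1 with IFITM2 and 0.57 for IFITM1 with IFITM3. Among the 25 embryo cells these were 0.95, 0.45 and 0.34. These are descriptions over cells that share stages, an amplification method and, for close copies, possibly reads, and they carry no p. E20 cell 1 had 19.9 RPM of IFITM1 beside 412 RPM of IFITM2 and 851 RPM of IFITM3.

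Each member was also set against the 6608 genes with a symbol and a mean of at least 20 RPM. For IFITM1 the most similar gene was T (brachyury), a transcription factor of the primitive streak. The r of T was 0.71 over 34 cells and 0.62 over the 26 cells of the larger cluster. FOXH1, a partner of SMAD proteins in NODAL signalling, followed with 0.69, then IFITM2 with 0.69, MRPL27, a mitochondrial ribosomal protein, with 0.66, and PTPRF, a receptor tyrosine phosphatase, with 0.60. Over the larger cluster alone IFITM2, MRPL27 and FOXH1 stood above T, at 0.74, 0.73 and 0.64. T was 0.69, 4381, 194, 10.5, 244, 1656, 3593 and 427 RPM in E20 cells 1 to 8, so the 3 cells highest in T were also the 3 highest in IFITM1, and the 2 lowest were the 2 lowest. At E55 T was 119 and 0 RPM while IFITM1 was 2.05 and 2.90 RPM, and the single cells of other stages did not keep the order seen at E20. E36 cell 3, highest of its stage in IFITM1 at 791 RPM, had 48.0 RPM of T, and E36 cell 6, lowest at 48.2 RPM, had 103 RPM of T. At E16, cell 7 had 512 RPM of T with 152 RPM of IFITM1, and cell 6 had 185 RPM of T with 672.5 RPM of IFITM1.

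IFITM3 came first for IFITM2, and IFITM2 for IFITM3. Next for IFITM3 were MSX1, a homeobox factor of amnion and mesoderm, with r = 0.78, the glycolytic enzyme GAPDH with 0.75, the laminin subunit LAMB1 with 0.73 and the vesicle protein SYT1 with 0.72. For IFITM2 they were GAPDH with 0.74, MSX1 with 0.72, SYT1 with 0.69 and IFITM1 with 0.69. Within the larger cluster the r of MSX1 was 0.57 with IFITM3 and 0.54 with IFITM2. GAPDH averaged 235 ± 23.9 RPM at E55, 728 ± 217 RPM at E36 and 1043 ± 573 RPM in the embryo.

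The genes least like IFITM3 were GIP, a gut hormone gene, with r = -0.79, NCAM1, an adhesion molecule, with -0.74, and the ribosomal protein gene RPL15 with -0.73. GIP averaged 831 ± 249 RPM at E55, 268 ± 122 RPM at E36 and 94.0 ± 100.4 RPM in the embryo. USP48, NCAM1 and GIP had the lowest r with IFITM2, at -0.70, -0.70 and -0.69. RHOBTB1, SLC35D2 and HHEX had the lowest with IFITM1, at -0.57, -0.56 and -0.56.

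**Figure D3:**
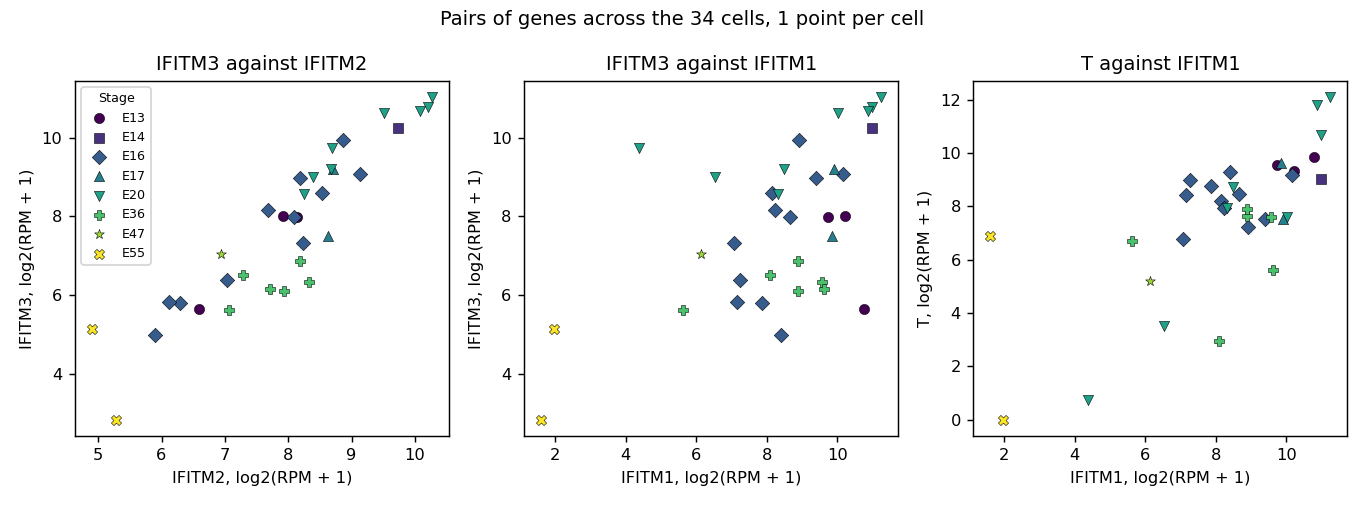
log2(RPM + 1) of IFITM3 against IFITM2, IFITM3 against IFITM1, and T against IFITM1, 1 point per cell with a symbol for each stage. Pearson's r over the 34 cells is 0.91, 0.57 and 0.71 from left to right, and the 2 E55 cells sit apart at the low end of IFITM1.

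Interferon-stimulated genes, the set that IFITM genes belong to in most cells, were read in the same cells. Of 36 such genes (IFITM genes left out), between 1 and 10 reached 15 RPM in any cell, with a median of 4, and 5 of the 36 had no read in any cell. The 2 E55 cells had 5 each, and the E36 cells had 4, 1, 1, 2, 10 and 4. E36 cell 5, the E36 cell with 10, also held the most gonadal somatic marker RNA of its stage, 1156 RPM. Its IFITM1, IFITM2 and IFITM3 levels of 270.3, 155 and 90.7 RPM lay within the range of the other E36 cells. E20 cell 1, from the embryo, had 10 as well, beside 229 RPM of gonadal somatic markers. ISG15, the ubiquitin-like modifier, reached 15 RPM in 2 of 34 cells.

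Between E36 and the embryo, 3 of 26 measured interferon-stimulated genes were called higher and 4 lower, with a median difference of 0.05 beside -0.39 for all genes, where 7.24% of all genes were called higher and 25.6% lower. IFI6, a mitochondrial survival protein, averaged 28.8 ± 69.3 RPM at E36, with 170 RPM in cell 5 and at most 1.23 RPM in each other cell, and 317.5 ± 784 RPM in the embryo. At E13 IFI6 stood at 3611, 1493 and 1289 RPM, and at E55 at 30.7 and 122 RPM. MX1, a dynamin-like antiviral GTPase, was listed at 0 in every E36 cell and averaged 20.4 ± 41.1 RPM in the embryo. The 3 called higher, IFI44, MX2 and CXCL10, reached 15 RPM in 2, 1 and 1 of the E36 cells and were listed at 0 in all 25 embryo cells, so they could be measured only through E36.

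Between E55 and E36, 7 of 20 measured interferon-stimulated genes were called higher and 4 lower, with a median of 0.27 beside 0.67 for all genes. HERC5, the ligase that attaches ISG15, was 70.7 and 108 RPM at E55 and averaged 25.8 ± 35.4 RPM at E36. ADAR, the RNA-editing enzyme, was above 15 RPM in all 34 cells, at 84.7 and 201 RPM at E55 and 104 ± 44.0 RPM at E36. Of all measured genes 40.8% were called higher and 10.3% lower in this comparison. The 4 called lower, ISG15, IFI44, MX2 and CXCL10, were listed at 0 in both E55 cells, so they could be measured only through E36. Among those called higher, MX1 and TRIM5 were at most 0 and 0.39 RPM at E36, so they could be measured only through E55. They were 5.07 and 12.3 RPM in E55 cell 2 and listed at 0 in E55 cell 1, so both calls rest on 1 cell. HERC6 and BST2, also called higher, were listed at 0 in E55 cell 1 as well.

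The interferon receptors and their signalling chain ranged by gene from near 0 to moderate levels. STAT2 was at most 3.87 RPM and IRF7 at most 0.45 RPM in any cell. IFNAR1 and IFNAR2, the type I receptor chains, averaged 31.5 and 15.3 RPM at E55, 46.3 ± 41.2 and 60.9 ± 73.0 RPM at E36, and 23.2 ± 15.7 and 22.2 ± 19.2 RPM in the embryo. IRF9, an interferon regulatory factor, was above 15 RPM in all 34 cells, at 25.6 and 39.1 RPM at E55 and 49.1 ± 18.1 RPM at E36.

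Of this list, 2 of 16 measured genes were called higher and 7 lower at E36 than in the embryo, beside 7.24% and 25.6% of all genes. At E55 against E36, 7 of 15 were higher and 3 lower, beside 40.8% and 10.3% of all genes. Its median difference was -0.79 in the first comparison, beside -0.39 for all genes, and 0.83 in the second, beside 0.67. Among those called higher at E55, IFNGR2, a type II receptor chain, was at 11.3 and 73.2 RPM in the E55 cells and averaged 5.02 ± 11.4 RPM at E36. The kinase TYK2 was at 107 RPM in 1 E55 cell and 0.72 RPM in the other, and averaged 0.21 ± 0.50 RPM at E36, so its call rests on 1 cell. Of 13 antigen presentation genes, 7 were measured at E36 against the embryo, and only B2M, the light chain of MHC class I, was called, at 24.2 ± 46.3 RPM at E36 and 193 ± 340 RPM in the embryo. B2M ran from 50.6 to 1338 RPM in the smaller cluster. In the embryo cells of the larger cluster it ran from 0 to 116.4 RPM, and in the E36 cells from 0 to 116.5 RPM. The median over the 7 was 0.32, beside -0.39 for all genes. At E55 against E36, 1 of 6 was higher and 1 lower, beside 40.8% and 10.3% of all genes, with a median of 0.01 beside 0.67.

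**Figure D4:**
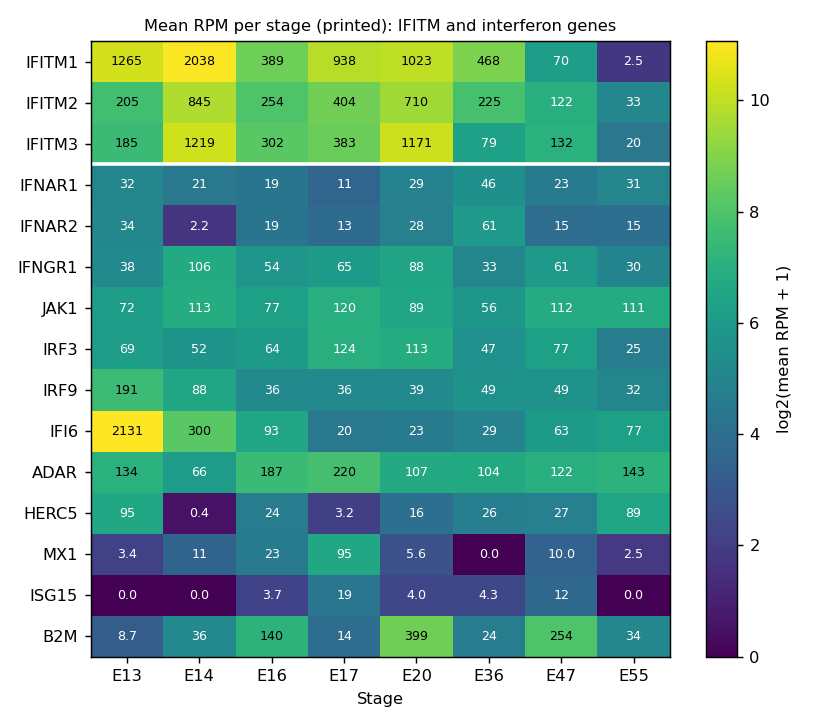
Mean RPM per stage (printed) for IFITM1, IFITM2 and IFITM3 above the white line and 12 interferon pathway genes below it, with colour for log2(mean RPM + 1). IFITM1 is 2.5 RPM at E55 and 468 RPM at E36, and HERC5 is 89 RPM at E55 and 26 RPM at E36.

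Genes whose proteins act with or upon IFITM proteins were read next. CD81, a tetraspanin that joins IFITM1 in a surface complex of human B cells, averaged 293 RPM at E55, 281 ± 134 RPM at E36 and 301 ± 150.0 RPM in the embryo. CD9, a related tetraspanin, averaged 250.1 RPM at E55, 190 ± 99.6 RPM at E36 and 189 ± 177 RPM in the embryo. ZDHHC20, an enzyme that palmitoylates IFITM3, averaged 124 RPM at E55, 112 ± 63.7 RPM at E36 and 61.0 ± 53.6 RPM in the embryo, with a log2 difference of 1.296 between E36 and the embryo. NEDD4, the ubiquitin ligase that marks IFITM3 for degradation, was 1.02 and 68.8 RPM at E55 and averaged 71.8 ± 51.7 RPM at E36 and 28.4 ± 30.4 RPM in the embryo. VAPA, a membrane contact protein bound by IFITM3, averaged 165.5 RPM at E55, 191 ± 80.7 RPM at E36 and 97.6 ± 62.8 RPM in the embryo. In all, 4 of 15 were called higher and 2 lower at E36 than in the embryo, beside 7.24% and 25.6% of all genes. At E55 against E36, 2 of 13 were higher and 2 lower, beside 40.8% and 10.3%. The list's median difference was -0.03 in the first comparison and 0.48 in the second, beside -0.39 and 0.67 for all genes.

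Genes that flank the human IFITM cluster were read last. At E55 against E36, 4 of 12 measured neighbours were called higher and 3 lower, beside 40.8% and 10.3% of all genes, with a median difference of 0.13 beside 0.67. Lower were B4GALNT4, a glycosyltransferase, SIGIRR, an interleukin receptor family inhibitor, and BET1L, a Golgi SNARE. B4GALNT4 was at 0 and 0.72 RPM at E55 and 24.0 ± 18.7 RPM at E36. SIGIRR was at 0 and 4.10 RPM at E55 and 17.5 ± 11.4 RPM at E36. BET1L was at 41.0 and 0 RPM at E55 and ran from 3.06 to 48.0 RPM at E36, so its call rests on 1 cell. RIC8A, a G protein chaperone, was higher, at 43.5 and 107 RPM at E55 and 35.0 ± 35.6 RPM at E36. At E36 against the embryo 1 of 14 was higher, SIGIRR, and 5 lower, beside 7.24% and 25.6% of all genes, with a median of -0.71 beside -0.39. PSMD13, a proteasome subunit found in all 34 cells, differed by -0.90 at E36 from the embryo and by 0.74 at E55 from E36. Other genes of the wider dispanin family to which IFITM genes belong, such as PRRT2 and SYNDIG1, were near 0 in the gonad, and none of 5 measured was called at E36 against the embryo.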

How the data were processed

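Single-cell cDNA of 34 cells was amplified and read by SOLiD sequencing, per the labels' protocols. The authors deposited 1 table of log2 values, log2(RPM + 1), per the file's values; cutadapt 1.3, TopHat 1.4.1 and Cufflinks 2.2.0 are named in the submitters' processing notes without a role. Neither the counter nor the build and annotation are stated there or in the labels. Values were returned to RPM and, from the whole-number steps of each cell, to reads (99.76% to 99.97% whole within 0.1 read). Depth was 472189 to 3556593 reads. It was 975833 and 1380691 reads in the E55 cells, where IFITM1 had 2 and 4 reads.

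A difference is that of mean log2(RPM + 1), with a pseudocount of 1, over cells; a gene counted as measured when either group averaged 1 RPM or more, as found at 15 RPM, and as called at 2-fold. Each stage is 1 sample, so no test was run. Summed reads carry exact Poisson intervals and shares exact binomial (Clopper-Pearson) intervals, at 95%, for counting error only. Cells were clustered by Ward linkage on 1000 variable genes. Each library was taken as 1 cell, and doublets were not called. The E47 library held 22784 RPM of gonadal somatic and 2426 RPM of germ cell markers, and RNA of more than 1 cell was not tested for. The steps were checked on simulated data, with Python 3.11.15, numpy 2.4.6, pandas 2.3.3 and scipy 1.17.1. In the check of differences, simulated cells of a group differed only in depth and counting error. It therefore does not cover the spread between real cells.

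The members and the 12 gene lists were chosen with earlier results of these data known. Named genes are the IFITM genes, the list members with the highest levels or largest differences or above 15 RPM in E36 or E55 cells, the 5 most and 3 least similar genes, and cell markers; 1 gene that the rule names is not reported here. Values of single cells were picked after they were seen, and so were the genes STAT2, IRF7 and BST2.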

Additional observations from a re-analysis of the deposited data

How the results depend on the processing

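Members called at 2-fold kept their direction under every alternative run (pseudocounts of 10 and 0.1, medians, ratios of mean RPM or of summed reads, size factors, the larger cluster alone, each cell left out). The call ended for IFITM1 at E36 against E13 (-0.68) with gonad cells above 200 RPM of somatic markers left out, which kept only E36 cell 2, and for IFITM2 at E36 against E20 (-0.93 there, and -0.93 in the larger cluster, where E20 cell 8 stands alone). That cut was not applied to embryo cells. It kept no E55 cell, so it gave no value for E55 against E36. IFITM1 at E55 against E36 was -4.87 with a pseudocount of 10. IFITM3 at E55 against E36 was -3.38 without E36 cell 5 and E55 cell 2, and ran from -3.43 to -1.14 with each cell left out. IFITM1 at E36 against the embryo, uncalled, was 0.62 under the somatic cut, -1.43 within code MS11 and 0.05 without E36 cell 6 in the larger cluster. For IFITM3 at E36 against E13, uncalled at -0.94, medians gave -1.73.

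Asking for a mean of at least 20 RPM lowered the number of genes called lower to 2320 from 3795 (E36 against embryo), 2747 from 4465 (E13), 2614 from 4313 (E16), 2803 from 4332 (E20) and 758 from 1373 (E55 against E36), and of genes called higher to 1369 from 2206 (E13) and 3335 from 5464 (E55 against E36), because fewer genes were counted. Clustering on 500 genes moved 0 cells, and average linkage moved E17 cell 2 to the smaller cluster. No paired analysis was possible because each sample is a different cell and the labels name no animal. IFITM1 at E55 rests on 6 reads over both cells, whose depth lay within the range of the E36 cells.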
